A study of Mus musculus with 45 samples.

Results

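Regulatory T cells (Tregs) that carry the genotype label Het_WT were compared between B16 melanomas, a transplantable mouse skin tumour, and non-draining lymph nodes (NDLN), in mice bearing these tumours. Het_WT was read, from the design text and the labels, as the neuropilin-1 (Nrp1)-sufficient Tregs of mice heterozygous for Nrp1 deficiency, so the tumour and the NDLN group share that genotype and differ in the tissue the cells were sorted from. The 10 Het_WT libraries were chosen by genotype and tissue labels, 5 per tissue, out of 45 in the series, and no expression value was used to choose them. A pair of near-identical libraries in each tissue was summed, which left 8 of 41 samples: tumour samples 2, 3, 4 and ds2, and NDLN samples 2, 4, ds1 and ds2. Values per sample are given below in that order. Tregs labelled WT, from wild-type mice (10 samples), and Tregs labelled Het_Nrp1-, the Nrp1-deficient cells of the heterozygous mice and called HetNrp1def here (8 samples), served as comparators, each again from tumour and NDLN. The label Het_Nrp1- also stands on 10 libraries with other titles, which entered only the shared estimate of spread. The sources used here do not give the allele, the promoter that drives any Cre or the animals behind each sample. No label says that the replicates of a group are different animals, and p-values therefore rest on the variation among the samples at hand, part of which may be technical. Libraries came from 5000 sorted Tregs each, sorted once or sorted again ("ds", read as double sorted).

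Tregs depend on the transcription factor Foxp3 and hold immune responses in check. Resting Tregs recirculate through lymph nodes with the help of the chemokine receptor Ccr7 and keep a programme that includes the transcription factors Tcf7, Lef1, Foxp1 and Bach2, whereas effector Tregs in inflamed or tumour tissue carry costimulatory receptors, inhibitory receptors and suppressive molecules. Nrp1 is a cell-surface coreceptor for semaphorin-4a and other ligands, and in mouse Tregs it has been linked to stability within tumours. Interferon gamma and its receptor, and the transcription factor T-bet (Tbx21), belong to type 1 immunity and are also used by Tregs in type 1 settings.

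Sample totals ran from 4743740 to 22879769 counts in tumour and from 4089172 to 35787148 counts in NDLN. NDLN sample ds1 stood apart from the other 7: it had counts for 20055 genes, a TMM scaling factor of 0.705, a correlation of 0.767 to 0.791 with the other NDLN libraries, and a score of -273.5 on the first principal component (33.9% of variance), against -35.0 to 89.4 in the others. Tumour sample 2 stood apart on the second component (18.7% of variance) at 190.5. Samples ds1 of the comparators also had low TMM factors: 0.552 in HetNrp1def NDLN, 0.780 in WT NDLN and 0.820 in WT tumour. WT NDLN sample 3 had 0.797. In Het_WT and HetNrp1def tumour, library ds1 is part of sample 4, with factors of 1.05 and 1.11. A ds1 sample with a low factor thus stood only on the NDLN side in both heterozygous populations, and on both sides in WT. Tumour sample 4 sums libraries ds1 and 4, which carry different sorting labels (chi-square per degree of freedom 2.65 between them), and NDLN sample 4 sums libraries 3 and 4 (2.75), while every other pair of Het_WT libraries within a tissue differed by 74.3 or more. Across groups, Het_WT NDLN ds2 differed by 20.3 from the NDLN ds2 library of another population, less than from any other Het_WT NDLN library, and both were kept as samples. As a check of the sorted cell type, Cd3e, Cd4, Il2ra, Ikzf2 and Ctla4 were counted in all 8 samples. Foxp3 itself was low, with 10.1, 8.66, 41.2 and 51.9 CPM in tumour and 2.598, 20.1, 1.84 and 32.02 CPM in NDLN. In a bulk sample, fewer cells of a type and less RNA per cell cannot be told apart.

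In tumour Het_WT Tregs, 6 of 19 genes of the resting, recirculating T cell state were lower, among them Ccr7 and Tcf7. Called higher were 4 of 30 glycolysis and hypoxia genes, 2 of 20 activated and effector Treg genes and 2 of 18 type 1 genes, among them Aldoa, Tnfrsf9 and Tbx21. Of 14668 genes tested, 24 were higher and 11 lower in tumour at an adjusted p below 0.05 (edgeR quasi-likelihood test, Benjamini-Hochberg adjustment over all genes), which is 0.164% and 0.0750% of genes and 0.239% together. The samples of both tissues did not overlap for any of these 35 genes. Over all genes, samples lay apart with tumour higher for 2.56% and with tumour lower for 2.11%, and the median log2 difference (tumour over NDLN) was -0.17, with 44.0% of genes above 0 and 55.9% below. Without NDLN sample ds1 the call was 16 higher and 8 lower, 21 of these 24 shared with the 35. Calls fell to 22, 19, 18 and 22 without tumour sample 2, 3 or 4 or NDLN sample ds2. With DESeq2's size factors in place of TMM the split was 16 higher and 12 lower, and the median of all genes was -0.27.

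The naive and lymphoid homing list held the most lower calls: 6 of its 19 members were lower in tumour, none was higher, 18 lay below 0 and the list's median log2 difference was -1.54. Called at an adjusted p below 0.05 were Ccr7, Tcf7, Foxp1, Id3, Igfbp4 and Faim3. Ccr7, the receptor for the lymph node chemokines Ccl19 and Ccl21 (chr11:99144196-99155077), had 52.2, 27.2, 29.6 and 78.99 CPM in tumour and 203, 313, 405 and 244 CPM in NDLN. For Ccr7 the log2 difference was -2.63 (SE 0.48, adjusted p = 0.00211). All 4 tumour samples were below all 4 NDLN samples, with the highest NDLN value in ds1. Tcf7, which encodes TCF1, a transcription factor of resting and stem-like T cells (chr11:52252371-52283014), had 44.3, 18.5, 45.7 and 61.3 CPM in tumour and 279, 246, 132 and 242 CPM in NDLN. For Tcf7 the log2 difference was -2.41 (SE 0.51, adjusted p = 0.0132). Tumour sample 3 was the lowest of all, and ds1 was the lowest of the NDLN samples and still above the tumour samples. Foxp1, a factor that maintains quiescence, had 229, 56.5, 68.5 and 81.9 CPM in tumour and 311, 342, 881 and 282 CPM in NDLN. For Foxp1 the log2 difference was -2.06 (SE 0.44, adjusted p = 0.0148). Id3, an inhibitor of E proteins, had 2.06, 4.37, 3.84 and 45.5 CPM in tumour and 157, 213, 288 and 411 CPM in NDLN (log2 difference -4.28, SE 0.91, adjusted p = 0.0166), where tumour ds2 stood far above the other tumour samples yet below the NDLN range.

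Igfbp4, which encodes an insulin-like growth factor binding protein (chr11:99041244-99054392), had 7.06, 0.65998, 1.21 and 0 CPM in tumour and 114, 114, 73.7 and 47.6 CPM in NDLN. For Igfbp4 the log2 difference was -5.25 (SE 0.99, adjusted p = 0.0052). Faim3, the file's symbol for the IgM Fc receptor Fcmr (chr1:130865669-130880791), had 0, 0.0825, 0 and 0 CPM in tumour and 24.4, 54.2, 1.38 and 21.4 CPM in NDLN. These were 2 counts in all tumour samples and 2631 in NDLN, a NDLN over tumour ratio of 1218 (95% counting interval 337 to 10060, which covers counting error only; adjusted p = 0.0421). Fcmr is also a B cell gene, and summed B cell markers were 27.0, 25.3, 34.1 and 39.7 CPM in tumour samples and 512.3, 302.7, 45.2 and 128.7 CPM in NDLN samples. All 9 tested B cell markers lay below 0 (median -4.01) and none was called. The part of B cell RNA in the Faim3 difference was not tested. Among members that missed the threshold, Dapl1 and S1pr1, named after their values were seen, did not overlap between tissues. S1pr1, the receptor for lymph node egress, had 161, 87.9, 35.4 and 209.9 CPM in tumour and 425, 379, 243 and 243 CPM in NDLN. For S1pr1 the log2 difference was -1.39 (SE 0.46, adjusted p = 0.284). Dapl1 had 0.235, 1.48, 2.72 and 0 CPM in tumour and 42.7, 29.1, 113 and 5.003 CPM in NDLN. For Dapl1 the log2 difference was -5.34 (SE 1.33, adjusted p = 0.0683). In all, 9 of the 19 members lay apart with tumour lower, against 2.11% of all genes. The count of 6 calls fell to 3, 1 and 1 without tumour sample 2, 3 or 4, to 3 without NDLN sample ds2, and was 5 without NDLN sample ds1.

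Of the 5 other genes called lower, Bcl2 belongs to the survival and death list. Bcl2, an inhibitor of apoptosis (chr1:106538178-106714274), had 64.9, 13.4, 38.8 and 66.01 CPM in tumour and 270.2, 266, 1028 and 353 CPM in NDLN (log2 difference -3.39, SE 0.58, adjusted p = 8.80e-04), with ds1 the highest NDLN sample by far. Bcl2 was called in every setting that left out 1 sample. Il6ra, the interleukin-6 receptor alpha chain, had 21.3, 18.3, 16.6 and 23.2 CPM in tumour and 120.4, 120.5, 301 and 97.1 CPM in NDLN. For Il6ra the log2 difference was -3.01 (SE 0.65, adjusted p = 0.0148). Treml2, a receptor of the TREM family, had 0.588, 5.11, 2.01 and 12.1 CPM in tumour and 92.8, 98.6, 184 and 61.04 CPM in NDLN. For Treml2 the log2 difference was -4.49 (SE 0.902, adjusted p = 0.00693). Each tumour sample was below each NDLN sample. Ift80, an intraflagellar transport gene, had 51.8, 38.7, 50.02 and 86.1 CPM in tumour and 422, 321, 339 and 361 CPM in NDLN. For Ift80 the log2 difference was -2.67 (SE 0.51, adjusted p = 0.00333). Ampd3, an AMP deaminase (chr7:110768206-110812405), had 0.412, 2.76, 1.71 and 2.74 CPM in tumour and 66.3, 12.1, 266 and 32.8 CPM in NDLN (log2 difference -5.63, SE 1.22, adjusted p = 0.0152), where NDLN values spread from 12.1 to 266.4 CPM. No other member of the 21-gene survival and death list was called, and its median was 0.58.

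**Figure D1:**
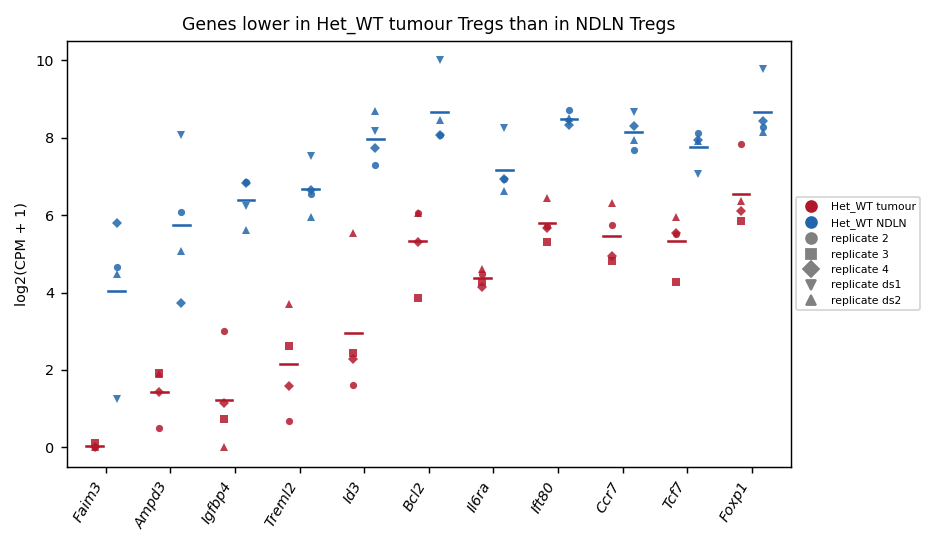
Expression of the 11 genes called lower in Het_WT tumour Tregs. Each point is 1 sample on a log2(CPM + 1) axis, tumour samples in red left of NDLN samples in blue, marker shape gives the replicate and bars give the mean. The tissues do not overlap in any gene, and NDLN replicate ds1 is the highest NDLN point for Bcl2, Il6ra, Foxp1, Ccr7, Treml2 and Ampd3.

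Among molecules of suppression and activation, 2 of 18 suppressive effector genes and 2 of 20 activated and effector Treg genes were called higher and none lower, against 0.164% of all genes, with list medians of 1.404 and 1.09. Among the genes called higher, the largest log2 difference was that of Gzmb, encoding the cytotoxic protease granzyme B (chr14:56258838-56262260), with 1191, 1177, 1376 and 1554 CPM in tumour and 16.02, 25.1, 16.6 and 5.003 CPM in NDLN. For Gzmb the log2 difference was 6.39 (SE 1.37, adjusted p = 0.0256). Havcr2, which encodes the inhibitory receptor TIM-3 (chr11:46454935-46481255), had 208, 105, 94.6 and 116 CPM in tumour and 4.31, 4.79, 1.15 and 5.604 CPM in NDLN. For Havcr2 the log2 difference was 5.03 (SE 1.18, adjusted p = 0.0399). It was the only call among 13 coinhibitory receptors (median 1.16). It was not called when any 1 of the 8 samples was left out. Tnfrsf9 encodes the costimulatory receptor 4-1BB (chr4:150914562-150946102) and had 1059, 1273, 1587 and 1091 CPM in tumour and 107, 97.98, 171 and 143 CPM in NDLN. For Tnfrsf9 the log2 difference was 3.27 (SE 0.502, adjusted p = 1.69e-04). Every tumour sample of Tnfrsf9 was at least 1059 CPM and every NDLN sample at most 170.5 CPM. Bhlhe40, a basic helix-loop-helix transcription factor of activated T cells, had 651, 95.5, 174 and 104 CPM in tumour and 32.7, 21.7, 2.53 and 18.6 CPM in NDLN (log2 difference 3.75, SE 0.88, adjusted p = 0.0421), with tumour sample 2 far above the rest.

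Other members did not reach the threshold. Icos, Il10, Lag3 and Prdm1 were named after their values were seen, because the tissues did not overlap. Icos, a costimulatory receptor, had 797, 2193, 1674 and 2089 CPM in tumour and 485, 556, 604 and 594 CPM in NDLN. For Icos the log2 difference was 1.59 (SE 0.39, adjusted p = 0.0511). Il10, the anti-inflammatory cytokine, had 120.2, 227, 222 and 154 CPM in tumour and 28.4, 6.85, 0.2304 and 9.41 CPM in NDLN. For Il10 the log2 difference was 3.99 (SE 1.27, adjusted p = 0.262). Its lowest NDLN value was that of ds1. Lag3, an inhibitory receptor, had 7.94 to 44.02 CPM in tumour and 0.6696 to 2.304 CPM in NDLN. For Lag3 the log2 difference was 3.99 (SE 1.28, adjusted p = 0.252). Prdm1, which encodes Blimp-1, had 144, 188, 230.4 and 199.5 CPM in tumour and 51.5, 46.7, 4.15 and 40.4 CPM in NDLN. For Prdm1 the log2 difference was 2.41 (SE 0.86, adjusted p = 0.359). Tnfrsf18 (GITR), a costimulatory receptor, had 1034, 1636, 1556 and 1379.8 CPM in tumour and 464, 583, 657 and 585 CPM in NDLN (log2 difference 1.29, SE 0.31, adjusted p = 0.0509), and all 4 tumour values lay above all 4 NDLN values. Tumour samples lay above NDLN samples for 7 of the 18 suppressive and 7 of the 20 activated genes, against 2.56% of all genes. The suppressive list held no call without tumour sample 4, nor when any 1 of the 4 NDLN samples was left out, and 1 without tumour sample 3 or ds2. The activated list held 1 call without tumour sample 3 or 4 or NDLN sample 2, ds1 or ds2.

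The CD8 and cytotoxic list had 1 call of 8 and a summed level of 3377, 2099, 1786 and 949.2 CPM in tumour samples against 590.1, 454.3, 482.1 and 176.5 CPM in NDLN samples. That call was Nkg7, a granule protein of cytotoxic lymphocytes (chr7:43437073-43438249), with 1755, 1613, 1102 and 642 CPM in tumour and 175, 157, 197 and 65.4 CPM in NDLN. For Nkg7 the log2 difference was 3.103 (SE 0.49, adjusted p = 2.25e-04). Cd8a, which defines CD8 T cells, had 6.47, 6.68, 8.9004 and 42.2 CPM in tumour and 75.5, 31.3, 1.38 and 1.201 CPM in NDLN, and Cd8b1 had 77.03, 17.2, 72.4 and 58.5 CPM in tumour and 116, 104, 1.15 and 12.6 CPM in NDLN. The tissues overlapped for both genes, and neither was called. The summed NK cell markers were 480.7, 143.6, 200.3 and 30.4 CPM in tumour samples against 286.6, 43.9, 5.53 and 3.40 CPM in NDLN samples, with 0 of 8 tested NK markers called. Whether other cytotoxic cells contributed to the granzyme B, Nkg7 and Tbx21 values was not tested.

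Of the type 1 genes, 2 were called higher. Tbx21, the gene for T-bet (chr11:97098071-97115331), had 150.2, 54.8, 61.01 and 58.7 CPM in tumour and 5.44, 1.72, 0.691 and 3.002 CPM in NDLN. For Tbx21 the log2 difference was 4.88 (SE 1.15, adjusted p = 0.0399). Ifngr1, the receptor chain that binds interferon gamma (chr10:19591949-19610229), had 549, 920.2, 868 and 1990.4 CPM in tumour and 146, 207, 131 and 279.99 CPM in NDLN. For Ifngr1 the log2 difference was 2.502 (SE 0.44, adjusted p = 0.00149). These were the 2 calls of 18 in the interferon gamma and Th1 list (median 1.04), where 8 members lay apart with tumour higher and 1, Ifngr2, with tumour lower. Of all genes, 0.164% were called higher, 2.56% lay apart with tumour higher and 2.11% with tumour lower. Ifngr2, the second receptor chain, had 0.647, 6.19, 11.2 and 2.01 CPM in tumour and 77.7, 56.8, 21.9 and 46.4 CPM in NDLN (log2 difference -3.32, SE 1.05, adjusted p = 0.242), so the chains of the same receptor had values on opposite sides of 0. Ifng itself had 491, 112, 41.7 and 24.7 CPM in tumour and 39.3, 12.96, 222 and 1.401 CPM in NDLN (log2 difference 1.28, SE 1.33, adjusted p = 0.831), and NDLN sample ds1 lay within the tumour range. Il12rb1, an interleukin-12 receptor chain, had 73.9 to 252 CPM in tumour and 1.38 to 26.9 CPM in NDLN. For Il12rb1 the log2 difference was 3.14 (SE 0.81, adjusted p = 0.0849). Ifngr2 and Il12rb1 were named after their values were seen. When any 1 of the 8 samples was left out, the list held 1 call.

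In the interferon gamma response list, 1 of 32 members was called, Iigp1, an interferon-inducible GTPase, with 643, 553, 638 and 837 CPM in tumour and 102, 142, 174 and 129.7 CPM in NDLN. For Iigp1 the log2 difference was 2.29 (SE 0.41, adjusted p = 0.00187). The list's median was 0.58, and Gbp6, Gbp7 and Igtp, named after their values were seen, lay apart with log2 differences of 1.87, 1.001 and 1.12. The type I interferon response list had a median of 1.73, 22 of 23 members above 0 and 10 lying apart with tumour higher, but no member passed the test. Of all genes, 44.0% were above 0 and 2.56% lay apart with tumour higher. Ifi27l2a, an interferon-stimulated gene, had 3500.1, 3102, 3718 and 2468 CPM in tumour and 951, 1619, 1708 and 759.5 CPM in NDLN. For Ifi27l2a the log2 difference was 1.34 (SE 0.33, adjusted p = 0.0511). It was called higher in 11 of 20 alternative settings. Zbp1, a nucleic acid sensor, had 273, 199.8, 260.03 and 237 CPM in tumour and 50.3, 44.9, 99.6 and 90.3 CPM in NDLN. For Zbp1 the log2 difference was 1.77 (SE 0.51, adjusted p = 0.164). For both genes every tumour value was above every NDLN value. Mx1, an antiviral GTPase, had 128 to 266 CPM in tumour and 9.08 to 36.4 CPM in NDLN. For Mx1 the log2 difference was 3.13 (SE 0.89, adjusted p = 0.164). Ifit3 had 267 to 370.5 CPM in tumour and 46.1 to 172 CPM in NDLN, and Xaf1 had 185 to 234 CPM in tumour and 67.01 to 76.9 CPM in NDLN. Mx1, Ifit3 and Xaf1 were named after their values were seen. Among the genes called outside the lists, Dtx3l, an interferon-induced ubiquitin ligase, had 641, 398, 384 and 338 CPM in tumour and 144, 138, 76.05 and 134 CPM in NDLN. For Dtx3l the log2 difference was 1.84 (SE 0.36, adjusted p = 0.00526).

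The glycolysis and hypoxia list held the most higher calls. Of its 30 members, 4 were higher at an adjusted p below 0.05 and none lower, 29 lay above 0, 15 lay apart with tumour higher (2.56% of all genes did), and the median was 1.70. The count of calls was 4 or 5 when any 1 of the 8 samples was left out and 3 with DESeq2's size factors. Tpi1, triose phosphate isomerase (chr6:124810586-124814296), had 538, 501, 627 and 572 CPM in tumour and 48.5, 79.4, 14.1 and 78.5 CPM in NDLN. For Tpi1 the log2 difference was 3.34 (SE 0.6005, adjusted p = 0.00187). Aldoa, aldolase A (chr7:126795234-126800751), had 2319, 1819, 2267 and 1668 CPM in tumour and 282, 549.5, 704 and 463 CPM in NDLN. For Aldoa the log2 difference was 2.01 (SE 0.31, adjusted p = 1.69e-04). The groups lay apart for both enzymes, with NDLN ds1 lowest for Tpi1 and highest for Aldoa. Gapdh, which acts after these in the pathway (chr6:125161715-125166467), had 1174, 1767, 1682 and 1319 CPM in tumour and 359, 604, 313 and 458 CPM in NDLN. For Gapdh the log2 difference was 1.78 (SE 0.33, adjusted p = 0.00267). Hif1a, the oxygen-regulated subunit of hypoxia-inducible factor 1 (chr12:73901375-73947530), had 1016, 976, 1037 and 1018 CPM in tumour and 388, 189, 402 and 275 CPM in NDLN (log2 difference 1.69, SE 0.34, adjusted p = 0.00815), and its tumour samples lay within 976.5 to 1037 CPM.

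Pkm, pyruvate kinase, had 569.9, 897, 838 and 1516 CPM in tumour and 175, 284, 333 and 445 CPM in NDLN. For Pkm the log2 difference was 1.63 (SE 0.41, adjusted p = 0.0739). Pfkp, phosphofructokinase, had 271 to 366 CPM in tumour and 59.8 to 119 CPM in NDLN. For Pfkp the log2 difference was 1.77 (SE 0.505, adjusted p = 0.161). Bnip3, a hypoxia-induced mitophagy gene, had 90.3 to 206 CPM in tumour and 1.29 to 12.4 CPM in NDLN. For Bnip3 the log2 difference was 4.73 (SE 1.38, adjusted p = 0.199). Pkm, Pfkp and Bnip3 were named after their values were seen. Melanoma marker RNA was present in some tumour samples: the 13 markers summed to 62.3, 663.7, 2375 and 32.7 CPM in tumour samples against 15.3, 28.2, 19.4 and 24.6 CPM in NDLN samples, with a median log2 difference of 5.42 and no call. Tyrp1, a melanocyte enzyme, had 27.3, 196, 688 and 0.366 CPM in tumour and 0.0804, 0, 0.461 and 0.2001 CPM in NDLN. Aldoa was 2319 and 1668 CPM in tumour samples 2 and ds2, where melanoma markers were lowest, and 1819 and 2267 CPM in samples 3 and 4. Gapdh was 1174 and 1319 CPM in samples 2 and ds2, and 1767 and 1682 CPM in samples 3 and 4. In the same order Tpi1 was 538 and 572 CPM, and 501 and 627 CPM. Hif1a was 1016 and 1018 CPM, and 976 and 1037 CPM. The part of melanoma RNA in these values was not tested. In oxidative phosphorylation 0 of 31 members were called, the median was 0.02 and 16 lay above 0. Cox4i1, a cytochrome oxidase subunit, had 437 to 612 CPM in tumour and 383 to 1277 CPM in NDLN.

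Promoter sequences of the 4 called glycolysis and hypoxia genes are shown because they were called together. ACGTG is 1 form of the core letters of hypoxia response elements. The other form, GCGTG, was not searched for. The sequences are the 250 bases before a RefSeq transcription start (GRCm38.p6), 5′ to 3′ on the gene's strand, in lower case with each match to ACGTG or its reverse complement CACGT in capitals. Where a gene has several starts, the one with the most matches is shown, the first in the table if tied.
Aldoa (chr7:126799255-126799504, - strand): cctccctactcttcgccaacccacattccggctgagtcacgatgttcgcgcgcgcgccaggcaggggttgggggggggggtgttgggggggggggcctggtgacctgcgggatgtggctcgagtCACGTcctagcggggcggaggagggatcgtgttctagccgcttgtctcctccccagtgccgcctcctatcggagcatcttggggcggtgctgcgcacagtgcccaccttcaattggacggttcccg
Tpi1 (chr6:124814159-124814408, - strand): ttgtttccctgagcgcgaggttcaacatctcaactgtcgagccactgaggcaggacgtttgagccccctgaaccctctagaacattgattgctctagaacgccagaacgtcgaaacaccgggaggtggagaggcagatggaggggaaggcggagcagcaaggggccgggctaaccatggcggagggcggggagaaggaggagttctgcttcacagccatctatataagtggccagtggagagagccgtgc
Gapdh (chr6:125165774-125166023, - strand): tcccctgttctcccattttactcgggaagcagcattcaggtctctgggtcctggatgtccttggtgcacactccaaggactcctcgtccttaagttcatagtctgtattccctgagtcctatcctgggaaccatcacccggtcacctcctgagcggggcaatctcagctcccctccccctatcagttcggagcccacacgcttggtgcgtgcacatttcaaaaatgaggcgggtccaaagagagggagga
Hif1a (chr12:73907617-73907866, + strand): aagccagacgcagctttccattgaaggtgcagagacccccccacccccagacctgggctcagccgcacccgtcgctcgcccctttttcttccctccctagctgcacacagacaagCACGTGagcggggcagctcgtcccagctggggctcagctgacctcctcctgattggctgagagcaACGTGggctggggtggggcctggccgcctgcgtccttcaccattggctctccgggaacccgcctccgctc
Hif1a had 3 matches, of which 2 overlap as CACGTG, and Aldoa had 1 at this start (2 of its 3 starts had a match). Tpi1 and Gapdh had no ACGTG or CACGT in this window. The Gapdh sequence holds the letters gcgtg, so the lack of a match does not show the lack of a core. The bases just after the Hif1a start were not found in a GENCODE vM21 transcript of that gene, unlike those of Aldoa, Tpi1 and Gapdh. The Hif1a start is therefore less certain. Of all 32851 RefSeq promoters of this length, 16.6% held ACGTG or CACGT. This share was taken without picking starts, whereas the Aldoa start was picked among 3. A match describes letters and is not evidence of binding.

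**Figure D2:**
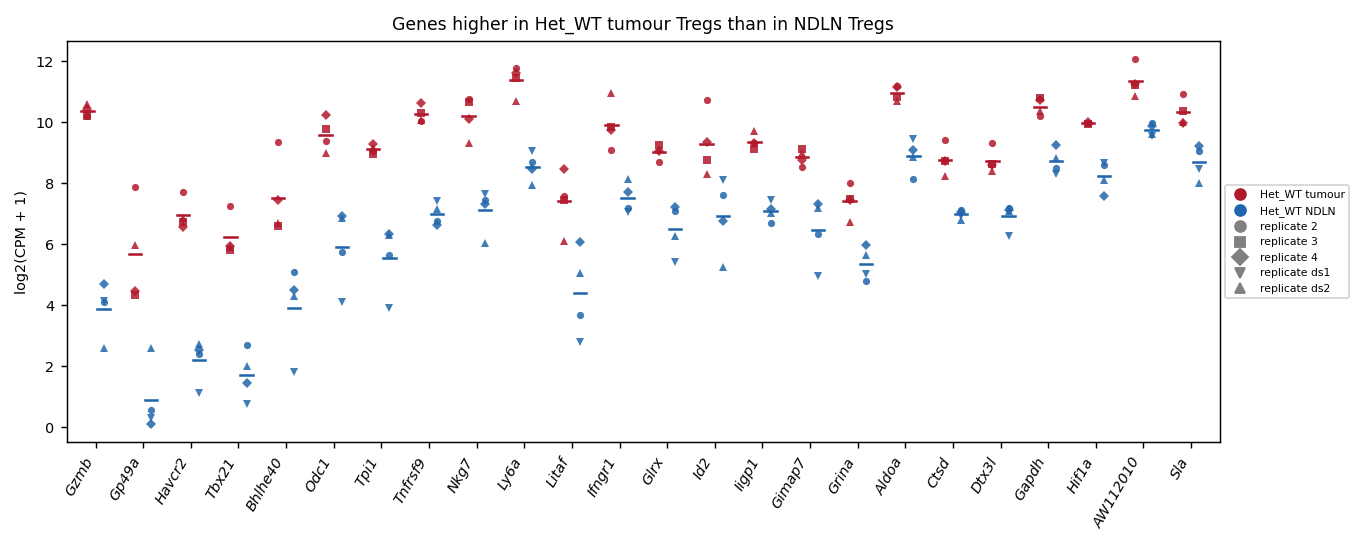
Expression of the 24 genes called higher in Het_WT tumour Tregs. Axes, colours and markers are as in the plot of the lower genes, with tumour samples in red left of NDLN samples in blue. The tissues do not overlap in any gene, and tumour replicate 2 is the highest point for Tbx21, Bhlhe40, Id2 and Gp49a. Replicate 2 is also the highest for Havcr2, Nkg7, Aldoa, Ly6a, Sla, Grina, Dtx3l, AW112010 and Ctsd.

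The remaining calls were higher in all 4 tumour samples than in all 4 NDLN samples. Ly6a (Sca-1), an interferon-inducible surface protein (chr15:74994877-74998031), had the smallest adjusted p, with 3538, 2781, 3159.7 and 1676 CPM in tumour and 418, 353, 535 and 247 CPM in NDLN. For Ly6a the log2 difference was 2.84 (SE 0.36, adjusted p = 2.07e-06). Its lowest tumour value, in ds2, was over 3 times its highest NDLN value. Odc1, ornithine decarboxylase of polyamine synthesis, had 669, 887, 1197 and 504 CPM in tumour and 52.7, 119, 16.4 and 114 CPM in NDLN. For Odc1 the log2 difference was 3.43 (SE 0.68, adjusted p = 0.00817). Id2, an E protein inhibitor, had 1709.7, 434, 653 and 315 CPM in tumour and 193, 108, 277 and 36.8 CPM in NDLN (log2 difference 2.34, SE 0.51, adjusted p = 0.018), in the opposite direction to its relative Id3. Tumour sample 2 was the highest for Id2. Glrx, glutaredoxin, had 418, 609, 537 and 559.7 CPM in tumour and 134, 148, 41.2 and 76.3 CPM in NDLN. For Glrx the log2 difference was 2.41 (SE 0.57, adjusted p = 0.0421). AW112010, an interferon-induced transcript, had 4324, 2390.4, 2459 and 1868 CPM in tumour and 999.7, 939, 741 and 779.5 CPM in NDLN. For AW112010 the log2 difference was 1.67 (SE 0.32, adjusted p = 0.00333). Sla, the adaptor SLAP, had 1011 to 1954 CPM in tumour and 257 to 599 CPM in NDLN. For Sla the log2 difference was 1.61 (SE 0.36, adjusted p = 0.0247). Gimap7 encodes a GTPase of lymphocytes. It had 373 to 563 CPM in tumour and 30.2 to 158 CPM in NDLN. For Gimap7 the log2 difference was 2.19 (SE 0.49, adjusted p = 0.0247). Grina had 106 to 258 CPM in tumour and 26.7 to 61.5 CPM in NDLN. For Grina the log2 difference was 2.09 (SE 0.47, adjusted p = 0.0256).

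Gp49a, the file's symbol for the receptor gene Lilr4b (chr10:51480632-51486703), had 234, 19.3, 20.9 and 62.2 CPM in tumour and 0.482, 0.0675, 0.2304 and 5.003 CPM in NDLN. For Gp49a the log2 difference was 5.94 (SE 1.28, adjusted p = 0.0148). Ctsd, the lysosomal protease cathepsin D, had 681, 429, 425 and 298 CPM in tumour and 138, 132, 121 and 110.3 CPM in NDLN. For Ctsd the log2 difference was 1.87 (SE 0.395, adjusted p = 0.0132). Litaf, a gene of the endosomal and lysosomal membrane, had 192, 173, 355 and 68.6 CPM in tumour and 11.7, 66.3, 5.99 and 32.4 CPM in NDLN. For Litaf the log2 difference was 2.76 (SE 0.65, adjusted p = 0.0421). Myeloid cells also express such genes, and summed macrophage and monocyte markers were 1889, 897.2, 1307 and 768.7 CPM in tumour samples against 412.5, 355.9, 460.4 and 274.6 CPM in NDLN samples. Ctsb and Ly6c2 together made up most of the sum in each sample. In tumour ds2 they had 520.2 and 234 CPM of 768.7, and in NDLN ds1 Ctsb had 436 CPM of 460.4. The gap between the sums therefore rests largely on these genes. Of the 18 markers 14 lay above 0 (median 1.96) and none was called. Ctsb and Ly6c2 were the 2 that lay apart with tumour higher, against 2.56% of all genes. Several markers, named after their values were seen, were higher in tumour samples 2, 3 and 4 than in NDLN. The complement gene C1qb had 139, 32.8, 18.8 and 0 CPM in tumour and 4.29, 0, 0.922 and 0 CPM in NDLN. Spp1, which encodes osteopontin, had 136, 90.6, 55.9 and 0 CPM in tumour and 0, 0, 0.691 and 0 CPM in NDLN. The monocyte marker Ly6c2 had 852, 107, 407 and 234 CPM in tumour and 71.6, 41.8, 1.61 and 2.402 CPM in NDLN, and the IgG receptor gene Fcgr1 had 60.4, 1.402, 5.43 and 0 CPM in tumour and 0.107, 0, 1.15 and 0 CPM in NDLN. Tumour sample 2 was the highest for these 4 genes, as it was for Gp49a and Ctsd, and in tumour sample ds2 C1qb, Spp1 and Fcgr1 had no counts. Litaf was instead highest in tumour sample 4, at 355 CPM, and Gp49a in ds2, at 62.2 CPM, was above samples 3 and 4. Csf1r, the receptor for macrophage colony-stimulating factor, had 0.824, 3.88, 0.251 and 0 CPM in tumour and 3.08, 0.0337, 7.14 and 0 CPM in NDLN, which overlapped. Lyz2 had 36.7, 31.6, 4.01 and 0 CPM in tumour and 69.3, 14.5, 0.461 and 0 CPM in NDLN, which overlapped. Apoe had 0.235, 45.99, 43.7 and 2.93 CPM in tumour and 40.9, 21.6, 0.922 and 3.60 CPM in NDLN, which also overlapped. Ctsb, which T cells also express, had 591, 499, 521 and 520.2 CPM in tumour and 174, 254, 436 and 262 CPM in NDLN. The part of myeloid RNA in these values was not tested. Gp49a shares sequence with Lilrb4, Gzmb with other granzymes, Iigp1 with related GTPases and Gapdh, Aldoa and Tpi1 with pseudogenes, so these counts are uncertain where reads could be split.

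Of 19 chemokine receptors, Ccr7 alone was called, 5 lay apart with tumour higher and 3 with tumour lower, against 0.239%, 2.56% and 2.11% of all genes. Those named here were chosen after their values were seen. Ccr2, the receptor for Ccl2, had 1734, 1651, 1406 and 807 CPM in tumour and 171, 183, 55.5 and 41.8 CPM in NDLN. For Ccr2 the log2 difference was 3.63 (SE 0.91, adjusted p = 0.0888). Tumour sample ds2 was the lowest of its tumour samples and still far above NDLN. Cxcr6, a receptor of tissue T cells, had 1302, 287, 184 and 133 CPM in tumour and 92.03, 35.7, 0.2304 and 3.803 CPM in NDLN. For Cxcr6 the log2 difference was 3.84 (SE 0.99, adjusted p = 0.113). Cxcr3, a type 1 homing receptor, had 351 to 491 CPM in tumour and 2.304 to 132 CPM in NDLN. For Cxcr3 the log2 difference was 2.39 (SE 0.85, adjusted p = 0.373). Chemokine ligands had a median of 2.60 and no call among 16. Ccl3, an inflammatory chemokine, had 601, 185, 175 and 25.8 CPM in tumour and 3.88, 0, 0 and 0 CPM in NDLN. For Ccl3 the log2 difference was 7.75 (SE 1.87, adjusted p = 0.0723). In NDLN only sample 2 had counts for it. Ccl4, its close relative, had 793, 444, 538 and 203 CPM in tumour and 9.67, 7.86, 0.691 and 17.2 CPM in NDLN. For Ccl4 the log2 difference was 5.799 (SE 1.504, adjusted p = 0.118). Ccl5, named after its values were seen, had 1515, 689, 1492 and 411 CPM in tumour and 260.01, 161, 100.2 and 24.4 CPM in NDLN. For Ccl5 the log2 difference was 2.91 (SE 0.79, adjusted p = 0.15). Reads could be split between Ccl3 and Ccl4.

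**Figure D3:**
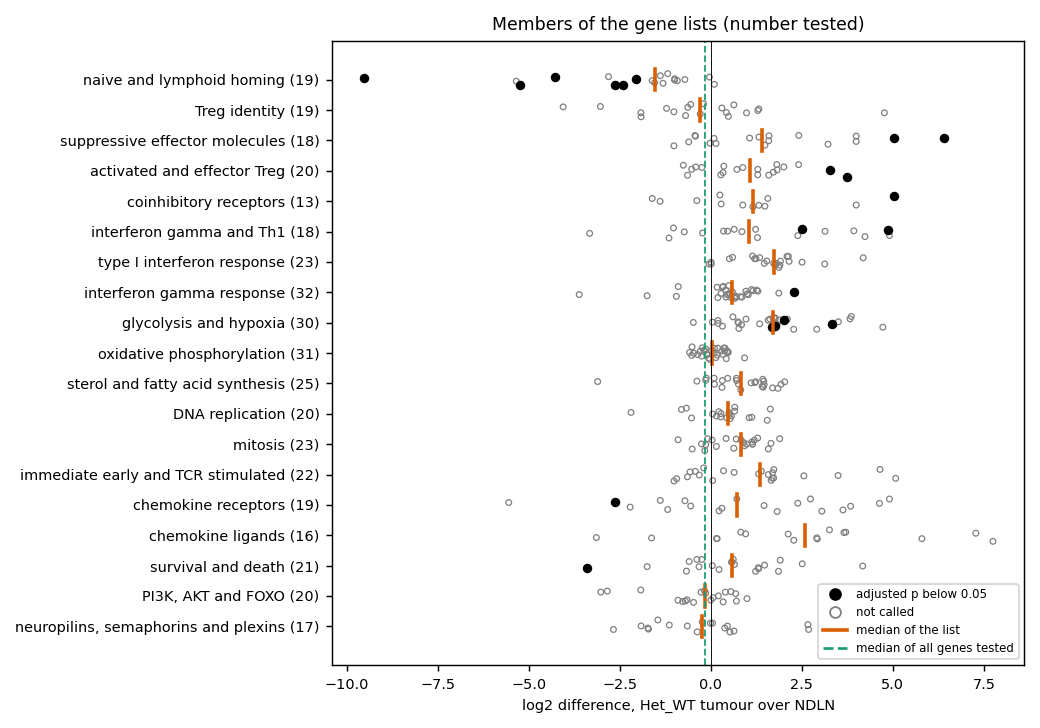
Log2 difference (Het_WT tumour over NDLN) of every tested member of the gene lists. Filled points are called at adjusted p below 0.05, open points are not, the orange bar is the list's median and the dashed line the median of all 14668 genes (-0.17). Naive genes lie mostly left, glycolysis and type I interferon genes mostly right.

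Nrp1, which defines the cells as Nrp1-sufficient (chr8:128358604-128503363), had 231, 124, 95.1 and 169.7 CPM in tumour and 219, 334, 1439 and 340.4 CPM in NDLN. For Nrp1 the log2 difference was -1.91 (SE 0.49, adjusted p = 0.085). It was not called. NDLN sample ds1 was far above the other NDLN samples, and tumour sample 2 was above NDLN sample 2. Without ds1 the log2 difference was -0.89 (adjusted p = 0.691), which is over 1.5 times smaller. DESeq2 (-2.25) and limma voom with sample weights (-1.25) were among 4 settings that called it lower. In WT Tregs the log2 difference of Nrp1 was -1.07 and in HetNrp1def -0.35, neither called. No member of the 17 tested neuropilins, semaphorins and plexins was called (median -0.23), nor any of 20 PI3K, AKT and FOXO genes (median -0.15), a pathway that Nrp1 signalling acts on in mouse Tregs. Rictor, an mTORC2 subunit, had 25.4 to 63.3 CPM in tumour and 95.3 to 356 CPM in NDLN. For Rictor the log2 difference was -1.92 (SE 0.66, adjusted p = 0.311). Pik3ip1, a PI3K inhibitor, had 0.118 to 22.9 CPM in tumour and 68.6 to 149.8 CPM in NDLN. For Pik3ip1 the log2 difference was -2.84 (SE 0.99, adjusted p = 0.324).

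Of 19 Treg identity genes 0 were called, the median was -0.29 and 8 lay above 0. Tumour samples lay above NDLN samples for 2 of them, Tnfrsf18 and Dusp4, and below for 3, among them Gpr83 and Nt5e. Over all genes these shares were 2.56% and 2.11%. Foxp3 had a log2 difference of 0.98 (SE 1.33, adjusted p = 0.882), which became -0.28 in single-sorted samples alone. Gpr83, Nt5e and Dusp4 were named after their values were seen. Gpr83, a G protein-coupled receptor of Tregs, had 18.1, 7.18, 9.23 and 13.2 CPM in tumour and 75.3, 77.1, 168 and 69.6 CPM in NDLN. For Gpr83 the log2 difference was -3.03 (SE 1.03, adjusted p = 0.311). Dusp4, a MAP kinase phosphatase, had 38.2, 11.7, 25.3 and 104 CPM in tumour and 2.62, 0.135, 1.84 and 2.001 CPM in NDLN. For Dusp4 the log2 difference was 4.77 (SE 1.44, adjusted p = 0.199). Proliferation genes were not called in either direction, with 0 of 20 for DNA replication (median 0.47) and 0 of 23 for mitosis (median 0.83). Sterol and fatty acid synthesis had 0 calls of 25 and a median of 0.82, and immediate early genes 0 of 22 and 1.35. Among immediate early genes Fosl2, an AP-1 subunit, had 177, 78.7, 101 and 33.8 CPM in tumour and 1.04, 8.2999, 1.84 and 0 CPM in NDLN. For Fosl2 the log2 difference was 5.08 (SE 1.27, adjusted p = 0.0686).

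The same 35 genes were read in the 2 other Treg populations, which share no sample with Het_WT. HetNrp1def Tregs also come from heterozygous mice, and no label tells whether the animals are the same. In both heterozygous populations libraries ds1 and 4 of tumour, and 3 and 4 of NDLN, were near-identical. Shared calls with HetNrp1def are therefore not independent replication. The fit and its interaction tests treat all samples as independent. In WT Tregs 128 genes were called between tumour and NDLN (0.873%), and in HetNrp1def Tregs 96 (0.654%). Of the 35 Het_WT calls, 32 were also called in WT (91.4% of the Het_WT calls, 25% of the WT calls) and 27 in HetNrp1def (77.1% and 28.1%), each in the same direction. All 35 had the same sign in both populations. The median log2 difference of the 24 higher genes was 2.46 in Het_WT, 2.85 in HetNrp1def and 2.73 in WT, and of the 11 lower genes -3.39, -3.20 and -3.31. Tbx21, Ampd3 and Grina were called in neither of the others: Tbx21 had 4.88 in Het_WT, 3.57 in HetNrp1def and 2.96 in WT, Ampd3 had -5.63, -1.79 and -3.31, and Grina had 2.09, 1.17 and 1.38, in that order of populations.

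No gene's tissue difference was called as differing between Het_WT and WT, nor between Het_WT and HetNrp1def, by edgeR's interaction test over 14668 genes (0 and 0 calls, 0%). At an unadjusted p below 0.05 there were 568 (3.87%) and 571 (3.89%) genes, while DESeq2 called 15 and 29 and limma voom 2 and 0. For the 35 genes, the difference of the log2 differences (Het_WT minus WT) ran from -2.50 to 1.92 with a median of 0.11 and a median SE of 0.65, and none had an unadjusted p below 0.05. Against HetNrp1def it ran from -3.84 to 3.04 with a median of -0.03 and a median SE of 0.68, and 2 had an unadjusted p below 0.05, Ampd3 (-3.84, SE 1.46, adjusted p = 0.99999) and Dtx3l (1.43, SE 0.498, adjusted p = 0.99999), named after their values were seen. These SEs leave room for differences of the size of 1 log2 unit in many genes, so the populations are not shown to be alike. The smallest unadjusted p against WT were those of 2610204G22Rik and Nme4 and against HetNrp1def those of Tprg and BC049352, with adjusted p of 0.441, 0.9999, 0.99999 and 0.99999 in that order. 2610204G22Rik had 0, 0, 0 and 0 CPM in tumour and 0.268, 3.21, 0.2304 and 4.603 CPM in NDLN and Nme4 had 0.0588, 0, 0.0836 and 0 CPM in tumour and 11.4, 3.21, 0.691 and 0.6004 CPM in NDLN. Tprg had 0, 0, 0 and 0 CPM in tumour and 2.76, 0, 1.15 and 0 CPM in NDLN and BC049352 had 0, 6.76, 2.13 and 6.03 CPM in tumour and 7.26, 6.65, 106 and 0.4003 CPM in NDLN.

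**Figure D4:**
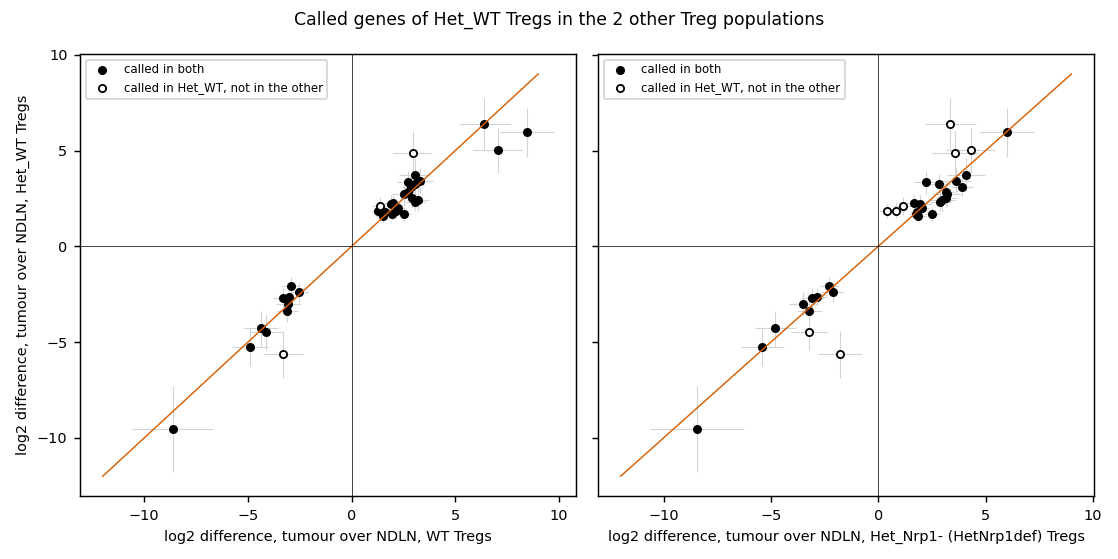
Log2 difference (tumour over NDLN) of the 35 called genes in Het_WT Tregs against the same in WT Tregs (left) and in HetNrp1def Tregs (right). Filled points are called in both, open points in Het_WT and not in the other, grey lines are ± 1 SE and the orange line marks equal values. All 35 points have the same sign on both axes.

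Marker lists of other cell types gave 1 call in all, Nkg7. Besides the melanoma, B cell, macrophage and NK lists, dendritic cell markers summed to 53.0 to 230.3 CPM in tumour samples and to 190.5 to 854.0 CPM in NDLN samples, with 854.0 in ds1, where Cd83 was 838.8 CPM. Fibroblast markers summed to 1.10 to 47.6 CPM in tumour and 0.506 to 34.8 CPM in NDLN, endothelial markers to 16.5 to 83.4 CPM and 37.2 to 126.5 CPM, and erythroid and platelet markers to 0 to 4.26 CPM and 0.0803 to 4.80 CPM, with hemoglobin genes Hbb-b1, Hba-a1 and Hba-a2 at 0 throughout. T cell markers summed to 6248 to 10372 CPM in tumour and 5350 to 9126 CPM in NDLN, so overlapped.

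**Figure D5:**
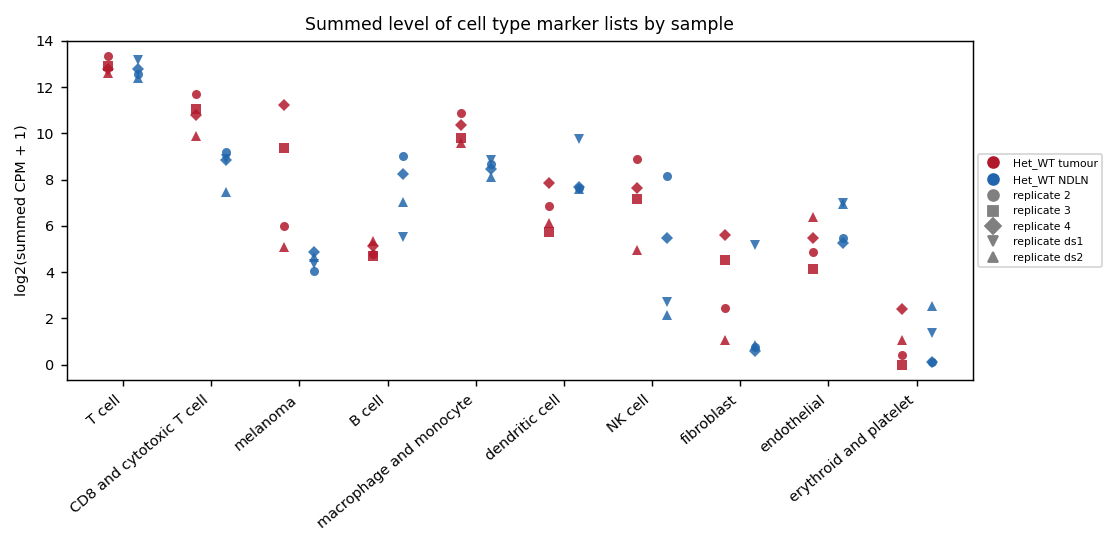
Summed level of each cell type marker list on a log2(summed CPM + 1) axis, 1 point a sample, tumour in red left of NDLN in blue. T cell markers overlap between tissues, melanoma markers are high in tumour replicates 3 and 4, and B cell markers are low in all tumour samples.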

How the data were processed

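Libraries of 5000 sorted Tregs each were made with a SMARTer ultra-low-input kit and Nextera XT and read on a NextSeq sequencer, per the labels' protocols. The authors deposited raw read counts per gene symbol for 23420 genes, with STAR, featureCounts and mm10 named in the submitters' processing notes, and no versions, annotation or strand setting given there. A second deposited table held log2 values that the authors had normalized and filtered, with limma named in the same notes, and these served as an alternative.

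Members and gene lists were chosen with earlier results of these data known. Libraries of a group whose counts differed by a chi-square per degree of freedom below 5 were summed into 1 sample. Counts were fitted with edgeR 4.0.16 in R 4.3.3 (TMM, filterByExpr by group with a minimum count of 10, robust quasi-likelihood fit of 41 samples in 9 groups, 32 residual degrees of freedom, no covariates), with Benjamini-Hochberg adjusted p below 0.05 over 14668 genes within each contrast. The contrasts were Het_WT tumour minus NDLN, and that difference minus the same difference in WT and in HetNrp1def Tregs. Levels are CPM, counts divided by the scaled library total with TMM scaling and are not per gene length. A log2 difference comes from the fit, tumour over NDLN, with its standard error (SE). Tissues "lay apart" where the lowest sample of one exceeded the highest of the other. Scripts were tested on simulated counts.

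Genes were named by rule: Nrp1, Foxp3 and Ifng, the 8 highest and 8 lowest calls with a mean of at least 10 CPM, up to 4 called members of each list and direction or else the 2 with the smallest p, and the 2 smallest p of each interaction without a call. All other calls, up to 3 list members lying apart and some further list members were named after their values were seen. Alternatives used limma 3.58.1 and DESeq2 1.42.0. Coordinates are from GENCODE vM21 (GRCm38, the mm10 assembly), which held 92.98% of the symbols. For counts of 1 to 3 in a group, a ratio of summed counts with a 95% interval is given, which covers counting error only.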

Additional observations from a re-analysis of the deposited data

Results flagged for a closer look

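Within each tissue, 29 of 228 gene and tissue groups of 4 samples had 1 sample set apart from the other 3, as the gap to the nearest sample divided by the range (a gap ratio above 0.829). The limit marks about 1 group in 20 for normally distributed values, but CPM values are skewed and the genes share samples. Where only 1 sample of a group has counts, the ratio is 1 by construction. The number of marks is therefore not read against 1 in 20. NDLN sample ds1 was the sample set apart for 15 genes. It was high for Nrp1 at 1438.9 CPM (the other samples 219.2 to 340.4 CPM, gap ratio 0.901) and Bcl2 at 1028.0 CPM (the other samples 265.8 to 353.2 CPM, gap ratio 0.885). Also high were Il6ra at 301.2 CPM (the other samples 97.1 to 120.5 CPM, gap ratio 0.885) and Foxp1 at 880.8 CPM (the other samples 281.6 to 341.6 CPM, gap ratio 0.8999). The same sample was high for Pole at 257.2 CPM (the other samples 8.61 to 37.9 CPM, gap ratio 0.882) and Rictor at 355.8 CPM (the other samples 95.3 to 137.7 CPM, gap ratio 0.837). Further high values were Spp1 at 0.691 CPM (the other samples 0 to 0 CPM, gap ratio 1) and Cd83 at 838.8 CPM (the other samples 140.6 to 172.9 CPM, gap ratio 0.954). Also high were Sparc at 3.69 CPM (the other samples 0 to 0.135 CPM, gap ratio 0.963) and Pdgfrb at 13.8 CPM (the other samples 0 to 0.134 CPM, gap ratio 0.99). The same sample was high for Vwf at 9.68 CPM (the other samples 0 to 0.268 CPM, gap ratio 0.972) and Pf4 at 0.23 CPM (the other samples 0 to 0.0268 CPM, gap ratio 0.884). Further high values were BC049352 at 106.5 CPM (the other samples 0.4 to 7.26 CPM, gap ratio 0.935) and Gpr83 at 167.8 CPM (the other samples 69.6 to 77.1 CPM, gap ratio 0.924). It was low for Dtx3l at 76 CPM (the other samples 134.3 to 144.4 CPM, gap ratio 0.852). Tumour sample 2 was the sample set apart for 5 genes. It was high for Tbx21 at 150.2 CPM (the other samples 54.8 to 61 CPM, gap ratio 0.935) and Bhlhe40 at 651.5 CPM (the other samples 95.5 to 173.5 CPM, gap ratio 0.86). Also high were Foxp1 at 229.0 CPM (the other samples 56.5 to 81.9 CPM, gap ratio 0.853) and Cxcr6 at 1301.5 CPM (the other samples 133.1 to 287.2 CPM, gap ratio 0.868). The same sample was high for Fasl at 186.7 CPM (the other samples 10.4 to 19.4 CPM, gap ratio 0.949). The remaining 9 marks fell in other samples. Gp49a in NDLN sample ds2 was 5 CPM, against 0.0675 to 0.482 CPM in the other NDLN samples (gap ratio 0.916). Faim3 was 0.0825 CPM in tumour sample 3 and had no count in the other tumour samples (gap ratio 1). Id3 in tumour sample ds2 was 45.5 CPM, against 2.06 to 4.37 CPM in the other tumour samples (gap ratio 0.947). Ier3 was 0.405 CPM in NDLN sample 4 and had no count in the other NDLN samples (gap ratio 1). Ccl3 was 3.88 CPM in NDLN sample 2 and had no count in the other NDLN samples (gap ratio 1). Tyr was 0.0337 CPM in NDLN sample 4 and had no count in the other NDLN samples (gap ratio 1). Ms4a1 was 0.0418 CPM in tumour sample 4 and had no count in the other tumour samples (gap ratio 1). Klre1 in NDLN sample 2 was 1.93 CPM, against 0 to 0.0675 CPM in the other NDLN samples (gap ratio 0.965). Pf4 was 3.8 CPM in tumour sample 4 and had no count in the other tumour samples (gap ratio 1).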

How the results depend on the processing

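Under 20 alternatives the 35 called genes kept their direction throughout. As the tissues did not overlap for these genes, settings that only left out samples could hardly reverse it. Of the values of the 35 genes, 478 stayed past the threshold and 222 did not. Of the values of named genes not called, 157 passed the threshold, 1416 did not and 18 changed sign. The most often called were Ifi27l2a, in 11 of 20 alternatives, Tnfrsf18 and Pkm, each in 9, and Icos, in 8. The count of 35 calls became 262 with DESeq2, 376 with limma voom and sample quality weights, 142 with all 45 libraries kept separate, 60 in single-sorted samples, 1 in double-sorted samples (where tumour is ds2 alone, assumed to vary like the other groups), and 18 with limma on the authors' log2 values (5 of them among the 35); why the counts differ was not tested. Leaving out 1 sample gave 18 to 31 calls. It was 28 to 45 with DESeq2 size factors, no filter, a minimum count of 50, only the 2 groups fitted, or the deeper library of each pair. With the replicate number as a replicate block the count was 93, all 35 genes included, and 0 for both comparisons of populations. Same-numbered samples (2, 4 and ds2) had deviations correlated at -0.03, -0.02 and 0.33, and the samples were not treated as paired. These correlations cannot settle pairing. Tumour sample 4 sums libraries ds1 and 4, whereas NDLN sample 4 sums 3 and 4. NDLN sample ds1 enters the NDLN mean without a tumour sample of that number. Both ds2 samples also had few counts and a high Malat1 share (1.20% of counts in tumour and 1.70% in NDLN, against at most 0.858% in the other Het_WT libraries). The comparison with WT gave 15 calls with DESeq2 and 2 with voom, and that with HetNrp1def 29 with DESeq2; all other alternatives gave 0. Of genes not called, these changed sign, with the cause not tested: in single-sorted samples Foxp3 (-0.28), Cox4i1 (0.0184), Pdgfrb (1.45), Vwf (0.22) and Pf4 (-1.70); in double-sorted samples, with tumour ds2 alone, Ifng (-1.69), Plxnb2 (-6.21), Spp1 (-3.75), Sparc (-6.05) and S1pr1 (0.0375); under the replicate block Pdgfrb (0.31) and Vwf (0.36); with the authors' log2 values Tnfrsf4 (-0.12) and Cdk1 (-0.69). Leaving out 1 sample, Pdgfrb ran from -4.30 to 1.42, Vwf from -3.11 to 0.96, Pf4 from -2.47 to 5.59 and Alas2 from -3.29 to 0.40. Depth limits low genes most in the ds2 samples, the shallowest, where a listed 0 does not show absence.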
